A study of Mus musculus with 4 samples.

Results

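Collagen chain genes were described across 4 RNA-seq libraries of primary cultured mouse astrocytes, the star-shaped glial cells of the brain. The genes were chosen by name: each gene identifier, without its version, was matched to the GENCODE vM21 annotation, and every protein-coding gene whose symbol has the form Col, number, a, number was kept. This gave 44 genes among the 55487 identifiers measured. They comprised 11 fibrillar, 9 basement membrane, 9 network, 9 FACIT (fibril-associated collagens with interrupted triple helices) and 4 transmembrane genes, and 2 genes, Col26a1 and Col28a1, that stand outside these types. The 4 groups held 1 library each: OASIS deficient with doxorubicin, OASIS deficient untreated, OASIS wild type with doxorubicin and OASIS wild type untreated. Cultures 5 days past confluence received doxorubicin, a DNA-damaging drug, at 1 µg/ml for 1 h, and RNA was taken after a further 24 h in fresh medium. OASIS is the protein of Creb3l1, and the labels do not give the strain or age of the animals, how the deficiency was made, or how many animals or cultures a library holds.

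Collagens are secreted proteins whose 3 chains wind into a triple helix in the endoplasmic reticulum before export. Fibrillar chains build rope-like fibrils, basement membrane chains build sheets on which cells sit, network chains build beaded filaments or lattices, and FACIT chains lie on the surface of fibrils. In the brain most fibrillar collagen is found in the meninges and around vessels, while basement membrane collagens line the vessels and the brain surface, where astrocyte endfeet end. OASIS is a transcription factor anchored in the endoplasmic reticulum membrane and, in mouse bone, is known to activate Col1a1.

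The libraries held 17481212 to 22559649 counts. Astrocyte markers were present in all of them: summed over 11 genes they reached 4581 and 5077 TPM in the deficient libraries with doxorubicin and untreated, against 1921 and 2043 TPM in the wild-type ones, with Gfap, the astrocyte filament protein, at 2475 TPM (doxorubicin) and 3073 TPM (untreated) in deficient libraries, against 577 TPM (doxorubicin) and 612 TPM (untreated) in wild-type libraries. Other cell types left marker RNA too, and the part of each in the results was not tested. Fibroblast and meninges markers, 12 genes with no collagen among them, summed to 97.0 TPM with doxorubicin and 89.0 TPM untreated in deficient, against 66.6 TPM with doxorubicin and 69.2 TPM untreated in wild type. Of these, Slc22a6 and Slc47a1 were at 0 in all 4 libraries and Lum was at 0 in both wild-type libraries. Pericyte and smooth muscle markers summed to 5536 and 5159.9 TPM in the deficient libraries with doxorubicin and untreated, against 1921 and 1573 TPM in the wild-type ones. Most of it was Acta2, Tagln and Cnn1. Other genes of that list were lower in deficient. Notch3 had 348 and 196 counts in deficient with doxorubicin and untreated, against 865 and 657 in wild type. Rgs5 had 70 and 103 counts, against 201 and 208. Cspg4 was higher in deficient in both pairs on TPM. The 8 endothelial markers summed to 2.55 TPM (doxorubicin) and 1.49 TPM (untreated) in deficient libraries, against 5.05 TPM (doxorubicin) and 5.83 TPM (untreated) in wild-type libraries. The oligodendrocyte lineage markers summed to 493 TPM with doxorubicin and 463 TPM untreated in deficient, against 130.0 TPM with doxorubicin and 194 TPM untreated in wild type. Neuron markers summed to 111 TPM with doxorubicin and 114 TPM untreated in deficient, against 46.8 TPM with doxorubicin and 80.7 TPM untreated in wild type. In the same order, microglia markers summed to 162 and 242 TPM, against 167 and 256 TPM. Ependyma markers summed to 155 and 169 TPM, against 223 and 170 TPM. The choroid plexus markers summed to 231 and 395 TPM in the deficient libraries with doxorubicin and untreated, against 156 and 301 TPM in the wild-type ones. Most of the choroid plexus sum was Ttr. Within that list Folr1 was higher in deficient in both pairs, Kl was lower in both, and Otx2 was lower with doxorubicin only. In such bulk samples, fewer cells of a type and less RNA per cell cannot be told apart. Xist, transcribed from the inactive X of female cells, had 2742 and 2547 counts in the deficient and wild-type libraries with doxorubicin, against 0 and 1 in those without, and the Y-linked genes listed were at 0 counts in both libraries with doxorubicin. Sex of the cultures and treatment label cannot be told apart wherever doxorubicin is set against untreated.

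Collagen chains were a small share of the RNA. On the TPM scale (a level scaled by transcript length and library size, so that genes can be compared), the 44 genes summed to 431 TPM in the deficient library with doxorubicin and 417 TPM in the deficient untreated one. In wild type they summed to 450 TPM with doxorubicin and 550 TPM untreated. These sums are 0.0431%, 0.0417%, 0.0450% and 0.0550% of all TPM in that order, so the wild-type untreated library was the highest and the other 3 lay close together. Fibrillar chains made up 39.4% and 40.9% of the collagen TPM in the deficient libraries with doxorubicin and untreated, against 36.1% and 39.4% in the wild-type ones. Basement membrane chains made up 18.2% and 17.6% in the deficient libraries with doxorubicin and untreated, below the 22.9% and 23.2% of the wild-type ones. The 10 genes highest in a library held 74.2% to 80.6% of its collagen TPM.

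**Figure D1:**
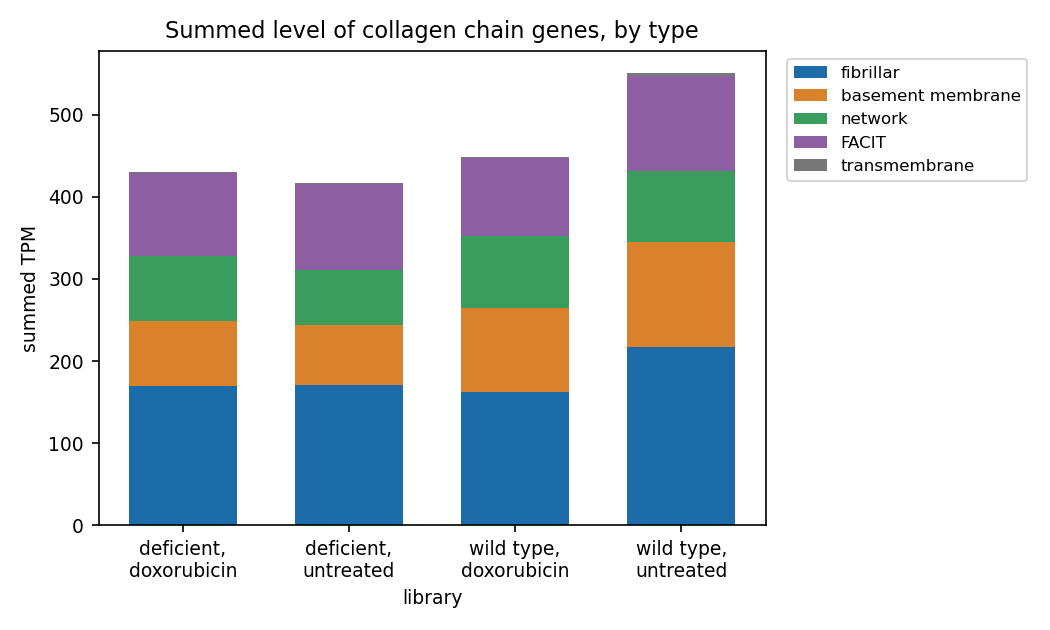
Stacked bars give the summed TPM of the collagen chain genes in each of the 4 libraries, split by type, and the axis starts at 0. The 2 genes outside the types, at 0.782 TPM or less in each library, are not drawn. The wild-type untreated bar is the tallest, at 550 TPM, and the basement membrane block is smaller in both deficient bars than in both wild-type bars.

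Of the 44 genes, 32 had a mean of at least 1 CPM (a count scaled by library size only) over the 4 libraries and were tested, and 12 fell below. By mean TPM the order began with Col5a2 (60.5), Col8a1 (59.1), Col12a1 (44.9), Col9a3 (39.6), Col4a1 (29.3), Col1a1 (25.3), Col11a1 (24.4), Col4a5 (23.0), Col1a2 (21.4) and Col5a1 (20.2). Each of these 10 overlapped the next gene in its range over the 4 libraries. That range spans different genotypes and treatments and is not a spread of replicates, so whether neighbours differ was not tested. Within each library, for example, Col9a3 was above Col4a1. The leading genes came from the fibrillar, network, FACIT and basement membrane types alike. The 12 genes below 1 CPM had at most 26 counts in any library. Col6a4 and Col6a6 had none in any library, and a count of 0 allows up to 0.131 to 0.174 CPM, a limit that covers counting error only. Col25a1, a transmembrane chain found in neurons, had 0 counts in both deficient libraries, against 21 with doxorubicin and 8 untreated in wild type. Col19a1, a FACIT chain, showed the other pattern, with 16 counts with doxorubicin and 4 untreated in deficient libraries and 0 in both wild-type ones. Col20a1 had 21 counts in each library with doxorubicin, against 6 in deficient and 1 in wild type untreated. Col26a1 had 5 counts with doxorubicin and 18 untreated in deficient, against 26 with doxorubicin and 1 untreated in wild type. Col10a1 had 21 and 0 counts in deficient, with doxorubicin and untreated, against 4 and 7 in wild type. The rest of the 12 (Col24a1, Col13a1, Col28a1, Col15a1 and Col6a5) had 13 counts or fewer in each library and a 0 in at least 1.

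**Figure D2:**
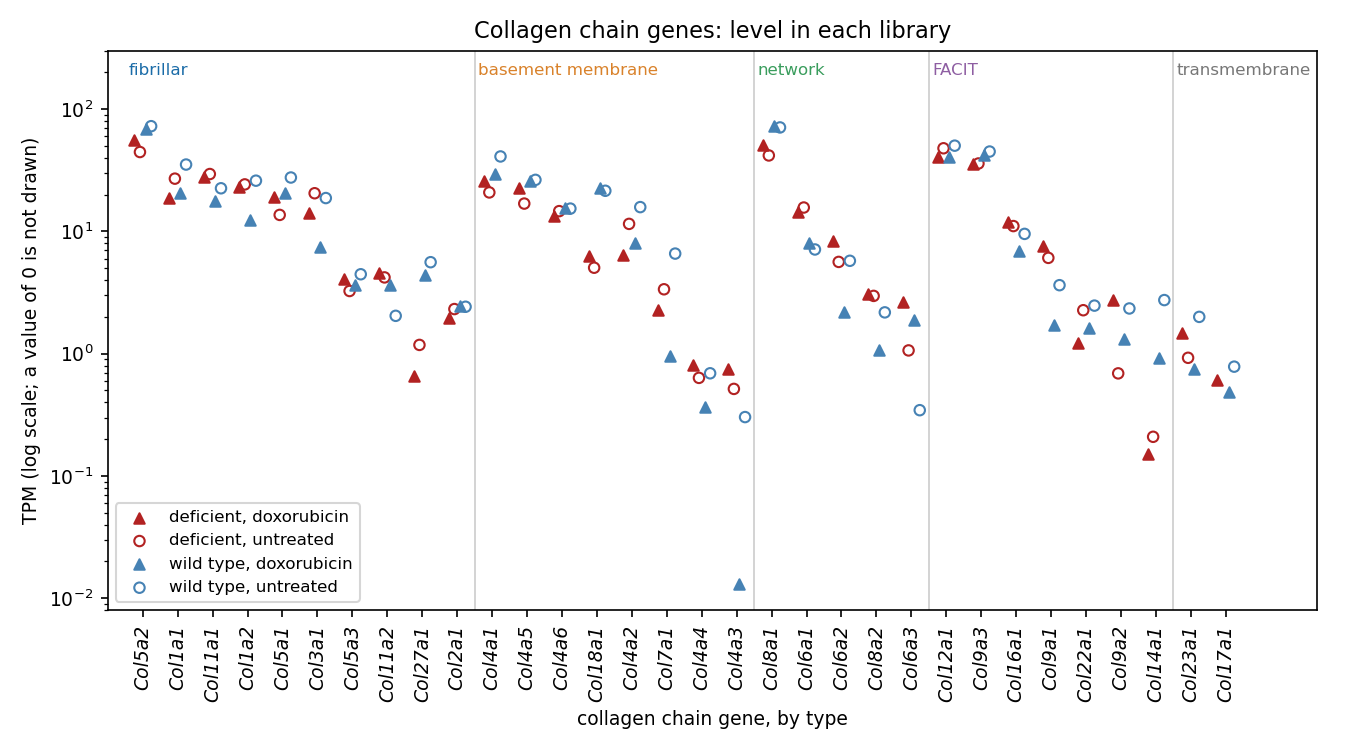
Each point is the TPM (log axis) of 1 tested collagen chain gene in 1 library, with genes ordered by mean level within their type; a value of 0 TPM (Col17a1, deficient untreated) is not drawn. Col18a1, Col27a1 and Col14a1 have both deficient points below both wild-type points.

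The stretches just upstream of 4 genes described below are shown because these genes differed between the genotypes: Col11a1 and Col11a2, partner chains that were both higher in deficient libraries, and Col18a1 and Col8a1, which were lower. They are RefSeq sequences on GRCm38.p6, written 5′ to 3′ on the strand of the gene, from the 250 bases before its RefSeq start, with bases in annotated exons left out: chr3:114030290-114030539 (plus strand) for Col11a1, chr17:34038888-34039137 (plus strand) for Col11a2, chr10:77166549-77166780 (minus strand) for Col18a1 and chr16:57754738-57754987 (minus strand) for Col8a1. Col18a1 has another RefSeq start, whose window (chr10:77113706-77113955) lies mostly in exons (241 of 250 bases) and is not shown. Which start these cells used was not tested. Capitals mark exact matches, on either strand, to 1 of 6 short motifs.
Col11a1: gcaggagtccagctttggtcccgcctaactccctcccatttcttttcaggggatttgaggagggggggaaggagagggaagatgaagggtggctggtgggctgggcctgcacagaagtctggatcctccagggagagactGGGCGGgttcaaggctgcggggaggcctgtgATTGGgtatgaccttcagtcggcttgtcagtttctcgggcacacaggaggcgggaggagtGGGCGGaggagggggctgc
Col11a2: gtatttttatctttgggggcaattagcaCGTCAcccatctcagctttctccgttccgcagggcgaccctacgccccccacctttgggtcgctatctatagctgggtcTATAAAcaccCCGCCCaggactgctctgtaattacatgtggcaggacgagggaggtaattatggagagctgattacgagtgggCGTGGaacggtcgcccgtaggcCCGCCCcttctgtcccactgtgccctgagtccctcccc
Col18a1: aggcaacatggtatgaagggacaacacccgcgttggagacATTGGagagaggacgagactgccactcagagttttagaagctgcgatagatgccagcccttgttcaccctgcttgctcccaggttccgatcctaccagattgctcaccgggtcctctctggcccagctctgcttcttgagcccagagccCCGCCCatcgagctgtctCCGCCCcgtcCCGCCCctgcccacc
Col8a1: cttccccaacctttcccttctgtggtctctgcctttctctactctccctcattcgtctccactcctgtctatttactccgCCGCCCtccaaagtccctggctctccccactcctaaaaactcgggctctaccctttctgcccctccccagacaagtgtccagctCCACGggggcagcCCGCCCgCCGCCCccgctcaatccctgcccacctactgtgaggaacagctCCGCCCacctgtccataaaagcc
The motifs searched were TATAAA (the TATA box), then CCAAT (the CCAAT box), then GGGCGG (the GC box bound by Sp1), then TGACG (a core of cyclic AMP response elements), then CCACG (a core of endoplasmic reticulum stress elements) and then ACAAT (a core of SOX sites). RefSeq windows of 250 bases were given for 35 of the 44 genes, 38 windows in all, and for 8 of the 10 genes called with genotype. Motifs were counted over the full 250 bases, exons included, and 20 of the 38 windows were free of annotated exons. The GC box was in 22 of the 38 windows (57.9%), against 32.7% of the 32851 windows of all genes. The TATA box was in 5 (13.2%, against 12.4%), the CCAAT box in 13 (34.2%, against 33.8%) and the stress element core in 13 (34.2%, against 28.3%). The cyclic AMP core was in 4 (10.5%, against 17.8%), 1 of them Col11a2, and the SOX core in 2 (5.26%, against 27.7%). A TGACG can overlap a CCACG read on the other strand. These are matches of letters, not sites of binding.

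The first comparison asks which collagen chains differ between OASIS deficient and wild-type astrocytes. Over all 4 libraries, edgeR's quasi-likelihood test with genotype and treatment as additive factors (Benjamini-Hochberg adjusted over 15597 genes, threshold 0.05) called 10 of the 32 tested chains: 4 higher and 6 lower in deficient. Across all genes 12.6% were called higher and 10.6% lower, so the count of 4 higher chains is near that background, and the 6 lower make a somewhat larger share. The 4 higher chains were Col11a1, Col6a1, Col9a1 and Col11a2. The 6 lower chains were Col18a1, Col27a1, Col14a1, Col8a1, Col5a2 and Col5a1. With 1 library a group, the 2 libraries of a genotype stand in for replicates and 1 residual degree of freedom is left. The spread used for each gene was mostly borrowed from all 15597 genes (14.3 prior degrees of freedom). The p-values thus rest on a spread pooled over genes within these 4 libraries, and not on a spread of replicates. Of the 32 chains, 17 had an unadjusted p under 0.05, against 5382 of the 15597 genes. The libraries of the genotypes did not overlap for 21 chains: 10 had both deficient libraries above both wild-type ones (31.2% of all genes did) and 11 had both below (30.7%). Leaving out either deficient library left 0 higher chains and 1 lower, Col18a1, past the threshold. No fit without a library had treatment in its model, so the lone library of 1 genotype met libraries of both treatments. Without either deficient library, the log2 fold changes of the 10 chains kept their sign and were 54.5% to 146% of their size with all 4 libraries. Leaving out the wild-type untreated library gave 9 higher and 4 lower, and leaving out the wild-type library with doxorubicin gave 4 higher and 7 lower. Of the chains that were not called, Col4a1 was called in 4 of 8 alternatives to the test, Col1a2, Col6a2 and Col7a1 in 3 of 8 each, and Col4a3 in 1 of 7.

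Among fibrillar chains, 2 were called higher and 3 lower of 10 tested. Col11a1, a minor chain that is built into the core of thin fibrils, had 2450 counts (doxorubicin) and 2275 counts (untreated) in deficient libraries, against 1174 counts (doxorubicin) and 1574 counts (untreated) in wild-type libraries. Its level was 28.0 TPM with doxorubicin and 29.4 TPM untreated in deficient, against 17.7 TPM with doxorubicin and 22.5 TPM untreated in wild type. Both deficient libraries lay above both wild-type ones, and the log2 fold change was 1.01 (SE 0.164, adjusted p 0.000323). Its partner Col11a2 had 359 and 270 counts in the deficient libraries with doxorubicin and untreated, against 160 and 175 counts in the wild-type ones, with a log2 fold change of 1.11 (SE 0.381, adjusted p 0.0470). Again both deficient libraries were above both wild-type ones, but the call was kept in 4 of 8 alternatives. Counts per TPM of Col11a2 varied 2.23-fold over the libraries, so its TPM and its counts order the wild-type libraries differently.

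Col27a1, a fibrillar chain of cartilage, had 41 counts (doxorubicin) and 52 counts (untreated) in deficient libraries, against 199 counts (doxorubicin) and 252 counts (untreated) in wild-type libraries. Both deficient libraries were well below both wild-type ones, and by the same factor in each treatment pair: the ratio was 0.239 with doxorubicin (95% counting interval 0.166 to 0.335) and 0.239 untreated (0.174 to 0.323). The log2 fold change was -2.06 (SE 0.526, adjusted p 0.00949). Col5a2, which forms type V collagen with Col5a1 and had the highest mean TPM, stood at 55.8 TPM with doxorubicin and 44.6 TPM untreated in deficient, against 69.3 TPM with doxorubicin and 72.5 TPM untreated in wild type. Col5a1 stood at 18.9 and 13.6 TPM in the deficient libraries with doxorubicin and untreated, against 20.7 and 27.6 TPM in the wild-type ones. Both were lower in deficient libraries within each pair, with log2 fold changes of -0.37 (SE 0.117, adjusted p 0.0317) and -0.54 (SE 0.181, adjusted p 0.0430), and the untreated deficient library was the lowest of the 4 for both. The call on Col5a2 was kept in 6 of 8 alternatives and that on Col5a1 in 5 of 8. Exons of Col5a1 share up to 113 bases with genes on the opposite strand, and the library kit does not mark strand, so reads there cannot be told apart.

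The type I chains, the main fibril formers of bone and skin, did not pass the test. Col1a1, the known bone target of OASIS, had 1781 counts (doxorubicin) and 1704 counts (untreated) in deficient libraries, against 2162 counts (doxorubicin) and 2778 counts (untreated) in wild-type libraries. In deficient it was lower untreated and near wild type with doxorubicin, with a log2 fold change of -0.28 (SE 0.153, adjusted p 0.211). Col1a2, its partner, had 1873 counts with doxorubicin and 1765 counts untreated in deficient, against 1122 counts with doxorubicin and 1890 counts untreated in wild type. Here the wild-type library with doxorubicin stood apart below the other 3, and the log2 fold change of 0.53 had an adjusted p of 0.0561. Col3a1, which forms type III fibrils, had 851 and 1107 counts in the deficient libraries with doxorubicin and untreated, against 603 and 1500 counts in the wild-type ones, with the wild-type library with doxorubicin again the lowest (log2 fold change 0.23, adjusted p 0.520). Col5a3, a minor type V chain, stood at 4.04 TPM (doxorubicin) and 3.25 TPM (untreated) in deficient libraries, against 3.66 TPM (doxorubicin) and 4.46 TPM (untreated) in wild-type libraries, and its log2 fold change was -0.04 with overlapping genotypes. Col2a1, the cartilage fibril chain, stood at 1.97 TPM with doxorubicin and 2.32 TPM untreated in deficient, against 2.44 TPM with doxorubicin and 2.42 TPM untreated in wild type. Its genotypes overlapped in CPM but not in TPM, and its log2 fold change was -0.07 (adjusted p 0.930). Fibroblast and meninges markers other than Ogn, 11 genes, summed to 31.3 TPM with doxorubicin and 29.0 TPM untreated in deficient, against 22.0 TPM with doxorubicin and 30.2 TPM untreated in wild type; their part in these values was not tested.

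Among basement membrane chains, 1 of 8 tested was called and it was lower in deficient. Col18a1, which carries endostatin at its C-terminal end, had 509 and 371 counts in the deficient libraries with doxorubicin and untreated, against 2057 and 1584 counts in the wild-type ones. Its level was 6.31 TPM (doxorubicin) and 5.04 TPM (untreated) in deficient libraries, against 22.7 TPM (doxorubicin) and 21.5 TPM (untreated) in wild-type libraries. The deficient libraries were far below the wild-type ones in both pairs, at a ratio of 0.286 with doxorubicin (95% counting interval 0.259 to 0.316) and 0.271 untreated (0.241 to 0.304). The log2 fold change was -1.84 (SE 0.195, adjusted p 4.63e-06), and the call held in all 8 alternatives to that test and without each library in turn. Col18a1 lies on chromosome 10 (77052178 to 77166548, minus strand), 326009 bases from Col6a1, which moved the other way.

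The type IV chains that build the vascular basement membrane differed less. Col4a1 stood at 26.0 TPM with doxorubicin and 20.8 TPM untreated in deficient, against 29.3 TPM with doxorubicin and 41.0 TPM untreated in wild type. The untreated wild-type library was the highest, the log2 fold change was -0.41 (SE 0.147), and the adjusted p of 0.0579 missed the threshold. Col4a2, whose gene meets Col4a1 head to head with 22 shared bases, stood at 6.43 and 11.5 TPM in the deficient libraries with doxorubicin and untreated, against 8.06 and 15.8 TPM in the wild-type ones; its log2 fold change was -0.29 with an adjusted p of 0.312. The other type IV pairs are also neighbours: Col4a5 and Col4a6 lie head to head on chromosome X, 1308 bases apart, and Col4a3 and Col4a4 on chromosome 1, 71 bases apart. Col4a5 had 22.6 TPM (doxorubicin) and 16.9 TPM (untreated) in deficient libraries, against 26.0 TPM (doxorubicin) and 26.4 TPM (untreated) in wild-type libraries and Col4a6 had 13.4 TPM with doxorubicin and 14.6 TPM untreated in deficient, against 15.5 TPM with doxorubicin and 15.4 TPM untreated in wild type, with adjusted p-values of 0.156 and 0.974. Col4a3, a chain of the kidney filter, had 104 and 64 counts in the deficient libraries with doxorubicin and untreated, against 2 and 38 counts in the wild-type ones. The 2 counts in wild type with doxorubicin stood far below the other 3 libraries, giving a ratio of 60.2 there with a counting interval of 16.3 to 504, and the adjusted p over all libraries was 0.101. Up to 563 exon bases of Col4a3 overlap a gene on the opposite strand. Col4a4 had 132 counts (doxorubicin) and 93 counts (untreated) in deficient libraries, against 66 counts (doxorubicin) and 20 counts (untreated) in wild-type libraries, higher in deficient in both pairs, with an adjusted p of 0.0948; on TPM its untreated ratio turned the other way (log2 ratio -0.05), and its counts per TPM varied 5.87-fold over the libraries. Col7a1, which anchors skin basement membrane, had 102 counts with doxorubicin and 82 counts untreated in deficient, against 162 counts with doxorubicin and 441 counts untreated in wild type. The untreated wild-type library was the highest by far and the adjusted p was 0.0645. Its counts per TPM varied 5.21-fold, and on TPM the doxorubicin pair turned the other way, at 2.27 TPM in deficient against 0.958 TPM in wild type.

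Among network chains, 1 was called higher and 1 lower of 5 tested. Col6a1, a chain of beaded type VI filaments, had 948 and 941 counts in the deficient libraries with doxorubicin and untreated, against 571 and 431 counts in the wild-type ones. Both deficient libraries were above both wild-type ones, with a log2 fold change of 1.14 (SE 0.229, adjusted p 0.00186). Its partners did not pass the test. Col6a2 had 538 counts (doxorubicin) and 320 counts (untreated) in deficient libraries, against 162 counts (doxorubicin) and 348 counts (untreated) in wild-type libraries, with only the wild-type library with doxorubicin apart from the rest (log2 fold change 1.01, adjusted p 0.0922). Col6a3 had 123 counts with doxorubicin and 59 counts untreated in deficient, against 70 counts with doxorubicin and 48 counts untreated in wild type, with an adjusted p of 0.499 and counts per TPM that varied 4.33-fold. Col8a1, a short chain found in vessel walls and corneal lattices, stood at 50.7 and 41.8 TPM in the deficient libraries with doxorubicin and untreated, against 73.3 and 70.8 TPM in the wild-type ones. The deficient libraries were lower within each pair and did not overlap the wild-type ones, and the log2 fold change was -0.44 (SE 0.121, adjusted p 0.0143). Col8a2, its partner, had 215 counts (doxorubicin) and 183 counts (untreated) in deficient libraries, against 82 counts (doxorubicin) and 136 counts (untreated) in wild-type libraries, higher in deficient in both pairs but with an adjusted p of 0.115.

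Among FACIT chains, 1 was called higher and 1 lower of 7 tested. Col9a1, a chain of type IX collagen that coats cartilage fibrils, had 369 counts with doxorubicin and 258 counts untreated in deficient, against 86 counts with doxorubicin and 144 counts untreated in wild type. Both deficient libraries lay above both wild-type ones, with a log2 fold change of 1.68 (SE 0.439, adjusted p 0.0112). Its partner Col9a3, the fourth by mean TPM, stood at 35.4 and 35.9 TPM in the deficient libraries with doxorubicin and untreated, against 42.2 and 45.0 TPM in the wild-type ones, with a log2 fold change of -0.06 and an adjusted p of 0.863. Its genotypes overlapped in CPM but not in TPM, and the untreated log2 ratio was 0.03 on CPM and -0.32 on TPM. A stretch of 234 exon bases of Col9a3 overlaps Tcfl5 on the opposite strand. Col9a2 was low, with 69 counts (doxorubicin) and 27 counts (untreated) in deficient libraries, against 65 counts (doxorubicin) and 36 counts (untreated) in wild-type libraries, and its log2 fold change was 0.05. Col14a1, which binds fibrils in skin and tendon, had 16 counts with doxorubicin and 11 counts untreated in deficient, against 106 counts with doxorubicin and 159 counts untreated in wild type. Its deficient libraries held few reads, at a ratio of 0.175 with doxorubicin (95% counting interval 0.0964 to 0.297) and 0.0801 untreated (0.0392 to 0.147), and the log2 fold change was -3.06 (SE 0.831, adjusted p 0.0139). Col12a1, a fibril-binding chain and the third by mean TPM, stood at 40.9 and 47.8 TPM in the deficient libraries with doxorubicin and untreated, against 40.7 and 50.2 TPM in the wild-type ones, with a log2 fold change of -0.03 and an adjusted p of 0.898. Col16a1 had 11.9 TPM (doxorubicin) and 11.1 TPM (untreated) in deficient libraries, against 6.87 TPM (doxorubicin) and 9.54 TPM (untreated) in wild-type libraries and Col22a1 had 59 counts with doxorubicin and 44 counts untreated in deficient, against 99 counts with doxorubicin and 159 counts untreated in wild type, with adjusted p-values of 0.266 and 0.280. On TPM the untreated pair of Col22a1 was closer, at 2.27 TPM in deficient against 2.47 TPM in wild type. Its counts per TPM varied 2.86-fold over the libraries. Of the 2 transmembrane chains tested, neither was called. Col23a1 had 136 and 76 counts in the deficient libraries with doxorubicin and untreated, against 75 and 166 counts in the wild-type ones, lower in deficient untreated and higher with doxorubicin. Col17a1, of skin hemidesmosomes, had 24 counts (doxorubicin) and 0 counts (untreated) in deficient libraries, against 49 counts (doxorubicin) and 64 counts (untreated) in wild-type libraries. Its untreated ratio of deficient over wild type was 0, with a 95% counting interval that reached up to 0.0687. The adjusted p for Col17a1 was 0.199.

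**Figure D3:**
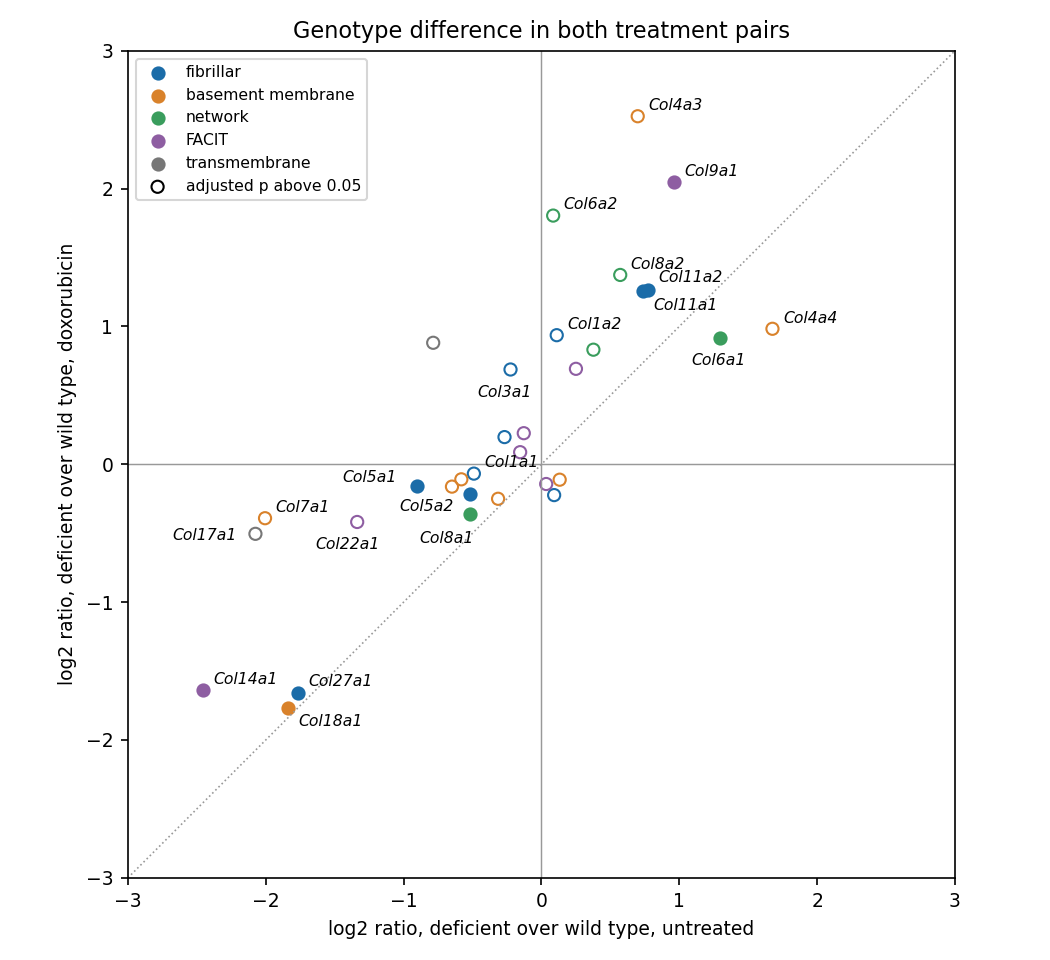
Each point is 1 of the 32 tested chains, placed by its log2 ratio of deficient over wild type (TMM-scaled CPM plus 1) in the untreated pair (x axis) and the doxorubicin pair (y axis); filled points had an adjusted p of at most 0.05 in the additive test, and the dotted line marks equal ratios. Col18a1 and Col27a1 lie near the line at the lower left, while Col4a3, Col6a2 and Col9a1 lie above it.

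Taken by size alone, with no test because each group has 1 library, the untreated pair held 2 chains at least 2-fold higher in deficient (9.8% of all genes were) and 6 at least 2-fold lower (10.2%). On the scale of log2(CPM + 1) the higher were Col4a4 (1.68) and Col6a1 (1.30). The lower were Col14a1 (-2.45), Col17a1 (-2.07), Col7a1 (-2.01), Col18a1 (-1.84), Col27a1 (-1.76) and Col22a1 (-1.34). In the doxorubicin pair 6 chains were higher (10.7% of all genes): Col4a3 (2.52), Col9a1 (2.05), Col6a2 (1.80), Col8a2 (1.37), Col11a1 (1.26) and Col11a2 (1.26). The 3 lower there (9.55% of all genes) were Col18a1 (-1.76), Col27a1 (-1.66) and Col14a1 (-1.64). The median over the 32 chains was 0.01 in the doxorubicin pair (all genes 0.02) and -0.19 in the untreated pair (all genes -0.03). On deposited TPM the doxorubicin pair had 2 higher and 2 lower, and the untreated pair 1 higher and 3 lower, where the median of all genes was -0.21. The 3 lower in the untreated pair were Col14a1, Col18a1 and Col27a1. Col22a1 was near 0 there on TPM (log2 ratio -0.09). The sign on TPM was opposite to that on CPM for 2 of 32 chains in the doxorubicin pair (Col17a1 and Col7a1) and 7 in the untreated pair, 1 of them past 2-fold, Col4a4.

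The second comparison asks which chains differ 24 h after doxorubicin. The additive edgeR test called 0 of the 32 chains higher (0.0192% of all genes were) and 0 lower (0.141%). There were 6 chains with an unadjusted p under 0.05 (864 genes in all): Col3a1, Col4a2, Col1a2, Col12a1, Col1a1 and Col11a1, all with negative log2 fold changes. Col3a1 came nearest, with 851 counts with doxorubicin and 1107 untreated in deficient, and 603 with doxorubicin and 1500 untreated in wild type (log2 fold change -1.05, SE 0.230, adjusted p 0.130). Col4a2 had 681 and 1050 counts in deficient with doxorubicin and untreated, and 942 and 1516 in wild type (log2 fold change -0.86, SE 0.191, adjusted p 0.132). limma-voom called these 2 chains lower, as did edgeR with DESeq2 size factors or with a minimum of 5 CPM, and DESeq2 called 1, Col3a1. The other log2 fold changes were -0.53 for Col1a2, -0.38 for Col12a1, -0.36 for Col11a1 and -0.35 for Col1a1, with adjusted p-values of 0.747 to 0.878. The libraries with doxorubicin both lay above both untreated ones for 1 chain, Col9a2 (9.57% of all genes), and both below for 5 (9.79%): Col3a1, Col4a2, Col1a1, Col12a1 and Col1a2.

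Within each genotype the ratios differed in direction. Within deficient libraries, 1 chain was at least 2-fold higher with doxorubicin (1.58% of all genes), Col17a1, which had 24 counts with doxorubicin against 0 untreated, at least 6.96-fold higher. None was at least 2-fold lower (1.93%). In wild type, none was at least 2-fold higher (4.08%) and 5 were lower (5.45%): Col7a1 (-1.52), Col3a1 (-1.48), Col4a3 (-1.42), Col6a2 (-1.19) and Col23a1 (-1.13 on the log2(CPM + 1) scale). For Col4a3, 2 counts with doxorubicin against 38 untreated give a ratio of 0.0458 with a counting interval of 0.00535 to 0.177. The log2 ratio was above 0 for 20 of 32 chains in deficient and for 10 of 32 in wild type. On TPM the sign was opposite for 4 chains in deficient and 5 in wild type, none of them past 2-fold on CPM. In deficient the 1 chain at least 2-fold higher on TPM was Col9a2 (1.16 on the log2(TPM + 1) scale), and Col17a1 stood at 0.69. The median on CPM was 0.15 in deficient (all genes 0.03) and -0.47 in wild type (all genes -0.003). By type, the deficient median was -0.10 for fibrillar, 0.17 for basement membrane, 0.26 for network, 0.14 for FACIT and 0.84 for transmembrane chains. The wild-type median was -0.41 for fibrillar, -0.27 for basement membrane, 0.11 for network, -0.67 for FACIT and -0.78 for transmembrane chains. The difference of the 2 responses, deficient minus wild type, was at least 2-fold up for 6 chains (7.66% of all genes) and down for none (6.05%), and its median was 0.47 (all genes 0.02). The 6 were Col4a3 (1.83), Col6a2 (1.72), Col23a1 (1.67), Col7a1 (1.61), Col17a1 (1.57) and Col9a1 (1.09). The difference uses all 4 libraries once and could not be tested. On TPM the deficient response of Col7a1 was below 0 as well (-0.41 on the log2(TPM + 1) scale). On that scale 5 chains were at least 2-fold up in the difference of responses. Col9a2 was among them, and Col4a3 and Col17a1 were not. Fibroblast and meninges markers at 0 numbered 5 of 12 in the wild-type library with doxorubicin and 2 to 3 in the others. With doxorubicin in wild type, 3 of the 12 markers (Dcn, Ogn and Mgp) had a higher TPM than untreated and 6 a lower one, and in deficient 7 were higher and 3 lower. The part of these cells in the responses was not tested.

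**Figure D4:**
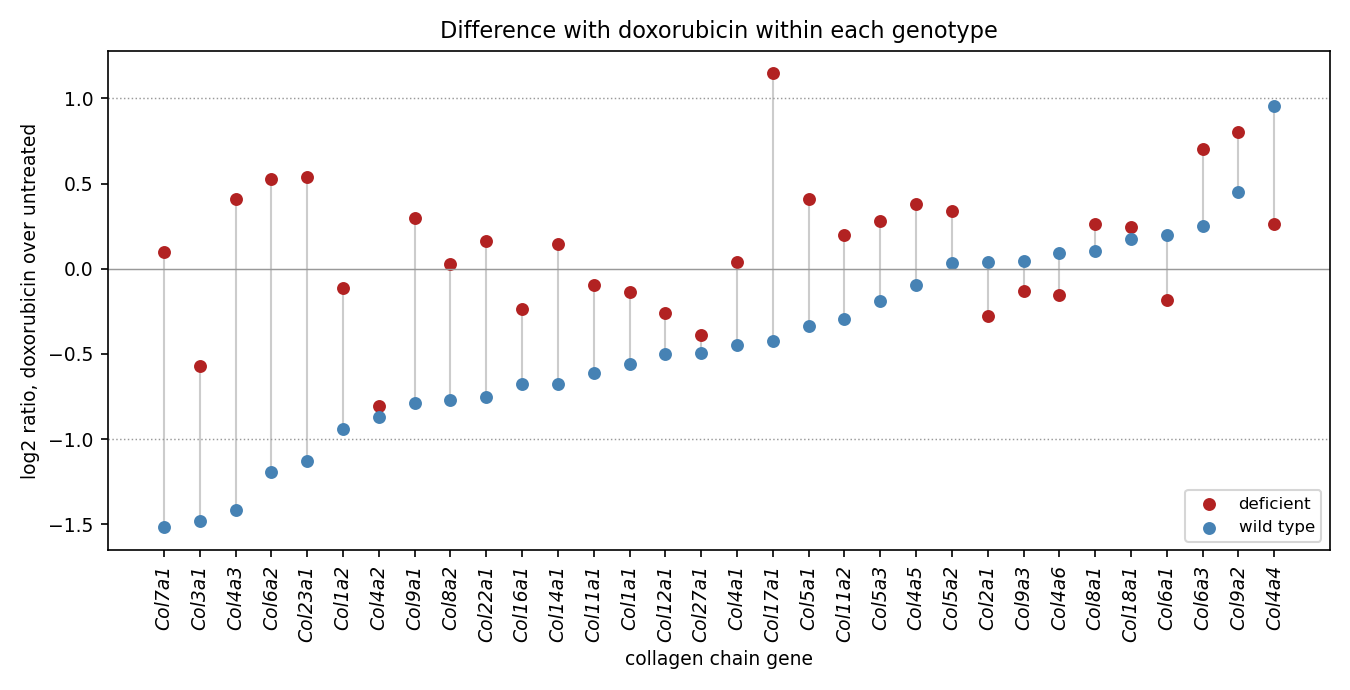
For each tested chain the red point is the log2 ratio of doxorubicin over untreated (TMM-scaled CPM plus 1) in deficient libraries and the blue point that in wild type, joined by a line, with chains ordered by the wild-type ratio and dotted lines at 2-fold. Blue points lie below 0 for 22 chains and red points for 12.

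Chains that share a triple helix were then compared within each library by their TPM. Col1a1 over Col1a2, which enter type I collagen together, was 0.805 with doxorubicin and 1.11 untreated in deficient, against 1.65 with doxorubicin and 1.35 untreated in wild type. The ratio was near 1 in deficient and highest in wild type with doxorubicin, where Col1a2 was low. Col4a1 over Col4a2 was 4.04 and 1.81 in the deficient libraries with doxorubicin and untreated, against 3.63 and 2.60 in the wild-type ones, higher with doxorubicin in both genotypes. Col5a1 over Col5a2 was 0.339 (doxorubicin) and 0.306 (untreated) in deficient libraries, against 0.298 (doxorubicin) and 0.380 (untreated) in wild-type libraries, within a narrow range. Col6a1 over Col6a2 was 1.71 with doxorubicin and 2.78 untreated in deficient, against 3.65 with doxorubicin and 1.24 untreated in wild type, and Col6a3 over Col6a1 was 0.183 and 0.0678 in the deficient libraries with doxorubicin and untreated, against 0.238 and 0.0485 in the wild-type ones. The third chain of type VI collagen was thus below the first in every library. Col8a1 over Col8a2 was 16.4 (doxorubicin) and 14.1 (untreated) in deficient libraries, against 68.1 (doxorubicin) and 32.5 (untreated) in wild-type libraries, lower in both deficient libraries than in both wild-type ones. Col9a1 over Col9a2 was 2.73 with doxorubicin and 8.80 untreated in deficient, against 1.29 with doxorubicin and 1.55 untreated in wild type, higher in both deficient libraries, and Col9a3 over Col9a2 was 12.8 and 52.0 in the deficient libraries with doxorubicin and untreated, against 32.0 and 19.2 in the wild-type ones. Col11a1 over Col11a2 was 6.11 (doxorubicin) and 7.01 (untreated) in deficient libraries, against 4.90 (doxorubicin) and 11.0 (untreated) in wild-type libraries, with overlapping genotypes although both chains were called higher. Col4a5 over Col4a6 was 1.69 with doxorubicin and 1.15 untreated in deficient, against 1.68 with doxorubicin and 1.72 untreated in wild type and Col4a3 over Col4a4 was 0.934 and 0.812 in the deficient libraries with doxorubicin and untreated, against 0.0352 and 0.438 in the wild-type ones. Counts per TPM varied more than 1.5-fold over the libraries for 10 of the 32 chains (14.5% of all tested genes did), so ratios with Col4a4, Col6a3, Col9a2 or Col11a2 lean on the deposited length scaling.

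**Figure D5:**
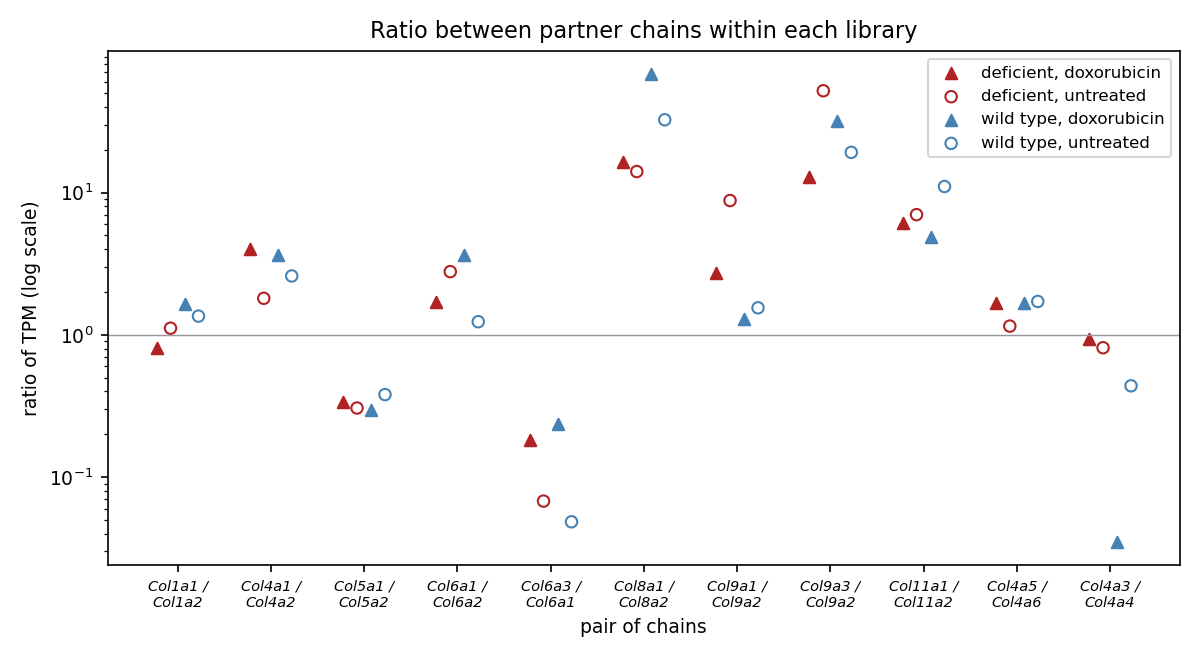
Points give the ratio of TPM between partner chains (log axis) in each of the 4 libraries, with a line at 1. Col8a1 over Col8a2 is lower in both deficient libraries than in both wild-type ones, and Col9a1 over Col9a2 is higher in both.

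Genes that make, process and bind collagen were counted from 7 lists. Of 19 tested genes for chain modification and folding, 6 were called higher in deficient by the additive edgeR test and 0 lower, against 12.6% higher and 10.6% lower over all genes. P4ha3, a prolyl hydroxylase subunit, had 3139 counts (doxorubicin) and 3001 counts (untreated) in deficient libraries, against 2260 counts (doxorubicin) and 1541 counts (untreated) in wild-type libraries (log2 fold change 0.93). P3h2, a prolyl 3-hydroxylase of basement membrane collagen, had 1077 counts with doxorubicin and 815 counts untreated in deficient, against 425 counts with doxorubicin and 431 counts untreated in wild type (1.34), and Fkbp10, a collagen chaperone, had 2913 and 2412 counts in the deficient libraries with doxorubicin and untreated, against 2091 and 1633 counts in the wild-type ones (0.73). The others were Plod1 (0.52), Ppib (0.35) and Colgalt2, a hydroxylysine galactosyltransferase with 169 counts (doxorubicin) and 40 counts (untreated) in deficient libraries, against 2 counts (doxorubicin) and 4 counts (untreated) in wild-type libraries. Serpinh1, the collagen chaperone HSP47, had 8978 counts with doxorubicin and 6282 counts untreated in deficient, against 9505 counts with doxorubicin and 6801 counts untreated in wild type and an adjusted p of 0.493, and P4ha1 and Plod2 had log2 fold changes of -0.02 and -0.16 (adjusted p 0.936 and 0.457). None of 10 export genes was called by edgeR, DESeq2 or limma-voom, and 1 had an unadjusted p under 0.05. Of 12 tested processing and crosslinking genes, Loxl1 (0.73) and Loxl3 (0.98), lysyl oxidases, were called higher and Bmp1 (-0.43), which cleaves the C-terminal propeptide, lower. Lox itself had 572 and 757 counts in the deficient libraries with doxorubicin and untreated, against 661 and 1613 counts in the wild-type ones, with an adjusted p of 0.198.

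Against the same shares of 12.6% higher and 10.6% lower over all genes, the other lists gave small counts. Of 8 tested receptors, Itga1, the alpha chain of a collagen-binding integrin (0.78), and Ddr2, a receptor kinase for fibrillar collagen (0.55), were called higher in deficient. Of 5 tested fibril binders, Fmod (0.48) and Ogn (0.76) were called higher, and of 5 tested collagenases Mmp2 (-1.67) and Mmp14 (-0.58) were called lower. Mmp2 had 357 counts (doxorubicin) and 377 counts (untreated) in deficient libraries, against 1229 counts (doxorubicin) and 1476 counts (untreated) in wild-type libraries. Among 17 regulators, Ccn2 (1.07) and Creb3l2 (0.66), the closest relative of Creb3l1, were called higher, and Creb3l1 (-1.45), Smad3 (-1.38) and Smad7 (-1.06) lower. Creb3l1 itself had 235 counts with doxorubicin and 260 counts untreated in deficient, against 636 counts with doxorubicin and 966 counts untreated in wild type, so its RNA was lower but present in the libraries labelled deficient. The additive edgeR test of doxorubicin called 0 genes in any of these lists. An unadjusted p under 0.05 belonged to 2 folding, 2 processing and 4 regulator genes, DESeq2 called 0, and limma-voom called 1, in the processing list.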

How the data were processed

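Per the labels' protocols, the library kit was SMART-Seq v4 Ultra Low Input, an unstranded chemistry. For each library the authors deposited an expected count and a TPM value per gene, per the file headers. The submitters' processing notes name DRAGEN and build GRCm38. The DRAGEN version, the gene annotation and read filtering were not given in the sources used here. Fractional expected counts (5810 to 6451 genes per library) were rounded to whole numbers. Of 55487 identifiers, 55227 matched GENCODE vM21 and 260 did not.

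Genes with a mean of at least 1 CPM over the 4 libraries (15597) were tested with edgeR 4.0.16 (R 4.3.3): TMM scaling, quasi-likelihood test, Benjamini-Hochberg adjustment over all of them, threshold 0.05. The test was also run on simulated counts with additive changes and 1 spread for all genes. That setting is simpler than these libraries, so the run does not show how the test behaves on them. The 1-library pairs were compared by log2(CPM + 1) with no test, and their ratios carry exact conditional binomial 95% intervals that cover counting error only. Depth was 17481212 to 22559649 counts, so 3 counts equal 0.131 to 0.174 CPM. Alternatives used DESeq2 1.42.0, limma 3.58.1, other scalings, pseudocounts (0.5 and 5 CPM), minimums (5 CPM, none), TPM, and a model without the other factor. Every chain at 1 CPM or more is named, and pathway genes that were called or preset are named. The genes, types and lists were chosen with earlier results of these data known. The labels do not say which libraries came from separate cultures or animals. By Xist and the Y-linked genes, libraries with doxorubicin and untreated libraries came from animals of different sex. The p-values rest on the spread between these libraries, pooled over genes, and not on a spread of replicates. Of 18 listed regulators 17 were found, since Ctgf is an older symbol of Ccn2.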

Additional observations from a re-analysis of the deposited data

Results flagged for a closer look

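The doxorubicin response (log2 ratio of doxorubicin over untreated) had opposite signs in the genotypes and differed by at least 2-fold, deficient minus wild type, for 6 chains. The difference was 1.83 for Col4a3, 1.72 for Col6a2, 1.67 for Col23a1, 1.61 for Col7a1, 1.57 for Col17a1 and 1.09 for Col9a1. On CPM, in each of the 6, the deficient response was above 0 and the wild-type response below 0. On TPM the opposite signs were lost for Col7a1, whose deficient response was -0.41 on the log2(TPM + 1) scale. On that scale the deficient and wild-type responses were 0.21 and -0.36 for Col4a3, and 0.69 and -0.26 for Col17a1. Both chains then differed by less than 2-fold. Col9a2, which is not among the 6, had responses of 1.16 and -0.53 on TPM. These differences were not tested, because each combination of genotype and treatment has 1 library. Across all genes 7.66% differed by as much in this direction. Col4a3 rests on 2 counts in the wild-type library with doxorubicin, and Col17a1 on 0 counts in the deficient untreated library.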

How the results depend on the processing

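The additive genotype test gave 4 higher and 6 lower chains. With DESeq2 size factors the higher count was 7. Leaving out a library, an alternative chosen after seeing the data, gave 0 to 9 higher and 1 to 7 lower: 0 and 1 without either deficient library, 9 and 4 without wild type untreated, and 4 and 7 without wild type with doxorubicin. In these fits treatment was not in the model, and the lone library is assumed to vary like the other genotype. The additive doxorubicin test gave 0 lower chains, against 2 with DESeq2 size factors, 2 with a minimum of 5 CPM, 2 with limma-voom and 1 with DESeq2. Without the other factor (no replicate block), 3 calls of single chains were lost, and no count moved by over 1.5 times. No paired analysis was possible because the groups hold 1 library each.

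For the pairs by size, deficient over wild type untreated gave 1 higher and 3 lower on TPM, 1 higher and 3 lower with a minimum of 5 CPM, and 1 higher with a pseudocount of 5 CPM. With doxorubicin it gave 2 higher on TPM and 1 lower with a pseudocount of 5 CPM. Doxorubicin over untreated in deficient gave 0 higher with a pseudocount of 5 CPM or a minimum of 5 CPM, and 2 with no minimum. In wild type it gave 1 higher on TPM, with a pseudocount of 0.5 CPM or with no minimum, and 2 lower with a pseudocount of 5 CPM. The difference of responses gave 3 higher with a pseudocount of 5 CPM and 1 lower with no minimum. Col4a4 turned from higher to lower in the untreated pair on TPM (log2 ratio -0.0495), the only chain past 2-fold whose sign turned. Below 2-fold, signs on TPM were also opposite for other chains, so that of 32 chains 7 turned in the untreated pair, 2 in the doxorubicin pair, and 4 in deficient and 5 in wild type for doxorubicin over untreated. Among these were Col7a1 in the doxorubicin pair and Col4a4 and Col9a2 in the wild-type response. The cause was not tested.

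The collagen share was 0.0477%, 0.0464%, 0.04995% and 0.0609% of protein-coding TPM in deficient with doxorubicin, deficient untreated, wild type with doxorubicin and wild type untreated. Without Col5a2, an alternative chosen after seeing the data, it was 0.0375%, 0.0372%, 0.0380% and 0.0478% of all TPM in the same libraries. Of 44 chain ratios, 26 moved when counts replaced TPM. The limits are 1 library a group, 1 residual degree of freedom and, for chains under about 5 CPM, few counts.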
